A study of Mus musculus with 4 samples.

Results

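The Hippo and YAP/TEAD pathway was examined at 10 mouse genes, which were taken by name. They were the coactivators *Yap1* and *Wwtr1* (which encodes TAZ), the DNA-binding factors *Tead1*, *Tead2*, *Tead3*, and *Tead4*, the kinases *Lats1* and *Lats2*, and the angiomotins *Amotl1* and *Amotl2*. They are 10 of 21887 protein-coding genes of the GRCm38 annotation. For each gene, H3K27ac peaks in the gene body plus 10 kb on each side were collected from the peak list of each library. A peak less than 1 kb away from either end of the gene was called a gene-end peak, and all others were called distal. A peak was called shared when it overlapped a peak of the other library by at least 1 bp.

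The mark H3K27ac, an acetylation of histone H3 that is typical of promoters and enhancers in use, was profiled by ChIP-Seq in mouse liver sinusoidal endothelial cells (LSECs), and the peak lists of the libraries C2 and C3 were used. Each has an input library of the same number, without antibody, which was not analysed here on its own. Fixation used 1% formaldehyde (10 minutes), followed by 125 mM glycine (5 minutes). The labels give no genotype, treatment, age, or sex of the mice and name no second condition. The methods of the study isolate LSECs by anti-CD146 microbeads and culture them briefly. The mice named there carry a floxed allele, *Col4a1* fl/wt, with or without *Cdh5* CreERT2, or carry *dCas9-KRAB* together with that Cre, and which of them gave these libraries is not said. The Cre is tamoxifen-inducible and driven by the promoter of *Cdh5*, an endothelial gene. The methods call the assay tagmentation assisted, whereas the labels describe sonication and a ligation-type library kit. Mice of the study were also given tamoxifen, and olive oil or carbon tetrachloride. Some *dCas9-KRAB* mice received an adeno-associated virus with a guide RNA or a control. In other experiments, isolated LSECs of such mice were transfected with guide RNAs and given TNF-α. Which of these treatments, if any, applies here is not said. With no second condition named, both libraries were taken as 1 condition. There was thus nothing to test between groups, and all values are descriptions. Whether the libraries came from separate animals is not stated.

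In the Hippo pathway, the kinases STK3 and STK4 with their adaptors activate LATS1 and LATS2. The LATS kinases phosphorylate YAP and TAZ, which are then held in the cytoplasm or degraded. When the kinases are inactive, YAP and TAZ enter the nucleus and bind TEAD factors, since they do not bind DNA themselves. Angiomotins hold YAP and TAZ at junctions and the actin cytoskeleton. In endothelial cells the pathway is known for responses to flow and matrix stiffness and for vessel sprouting.

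The C2 list held 26975 peaks and the C3 list 64498, or 2.39 times as many, and the number of reads behind them is unknown. Of C2 peaks, 99.2% overlapped a C3 peak, and of C3 peaks 37.7% overlapped a C2 peak. As a check of the cell type, 7 of 10 LSEC markers had a gene-end peak in both libraries, among them *Stab1*, *Lyve1*, *Cdh5*, and *Kdr*, and the other 3 (*Stab2*, *Mrc1*, and *Clec4g*) had one in C3 only. Markers of other cells had one in both libraries in 1 of 7 cases for hepatocytes, 0 of 7 for hepatic stellate cells, 0 of 7 for Kupffer cells, 0 of 5 for cholangiocytes, and 1 of 5 for lymphocytes, against 43.4% of all protein-coding genes. In C3 these counts were 3, 1, 0, 1, and 1, against 53.9%, with the highest value, 78.8, at the hepatocyte gene *Trf*. The C3 gene-end values of *Stab2*, *Mrc1*, and *Clec4g* were at most 5.86, 4.15, and 4.56, below the C3 list median of 8.89. A shared distal peak was present at 10 of 10 LSEC markers, at 3 of 7 hepatocyte, 1 of 7 stellate cell, 1 of 7 Kupffer cell, 0 of 5 cholangiocyte, and 2 of 5 lymphocyte markers, against 40.0% of all genes. The highest distal C3 values at markers of other cells were 91.8 at *Nkg7*, 68.7 at *Cd79a*, and 59.3 at *Hnf4a*. At LSEC markers the highest was 76.5, at *Stab1*. The part of other cells in the values of the 10 genes was not tested.

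The 10 genes held 50 peaks in C2 and 123 in C3, a ratio of 2.46. In C2, 11 were at gene ends and 39 were distal. In C3, 14 were at gene ends and 109 were distal. Of the 39 distal C2 peaks, 38 overlapped a C3 peak, and 36 of the 109 distal C3 peaks overlapped a C2 peak, since a wide C3 peak can cover several C2 peaks. *Wwtr1*, *Tead1*, and *Amotl1* together had 30 of the 38 shared distal peaks, all inside the gene bodies. *Yap1* and *Tead2* had none. The distal peaks were therefore concentrated at 3 of the 10 genes, which are also the longest of the 10.

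**Figure D1:**
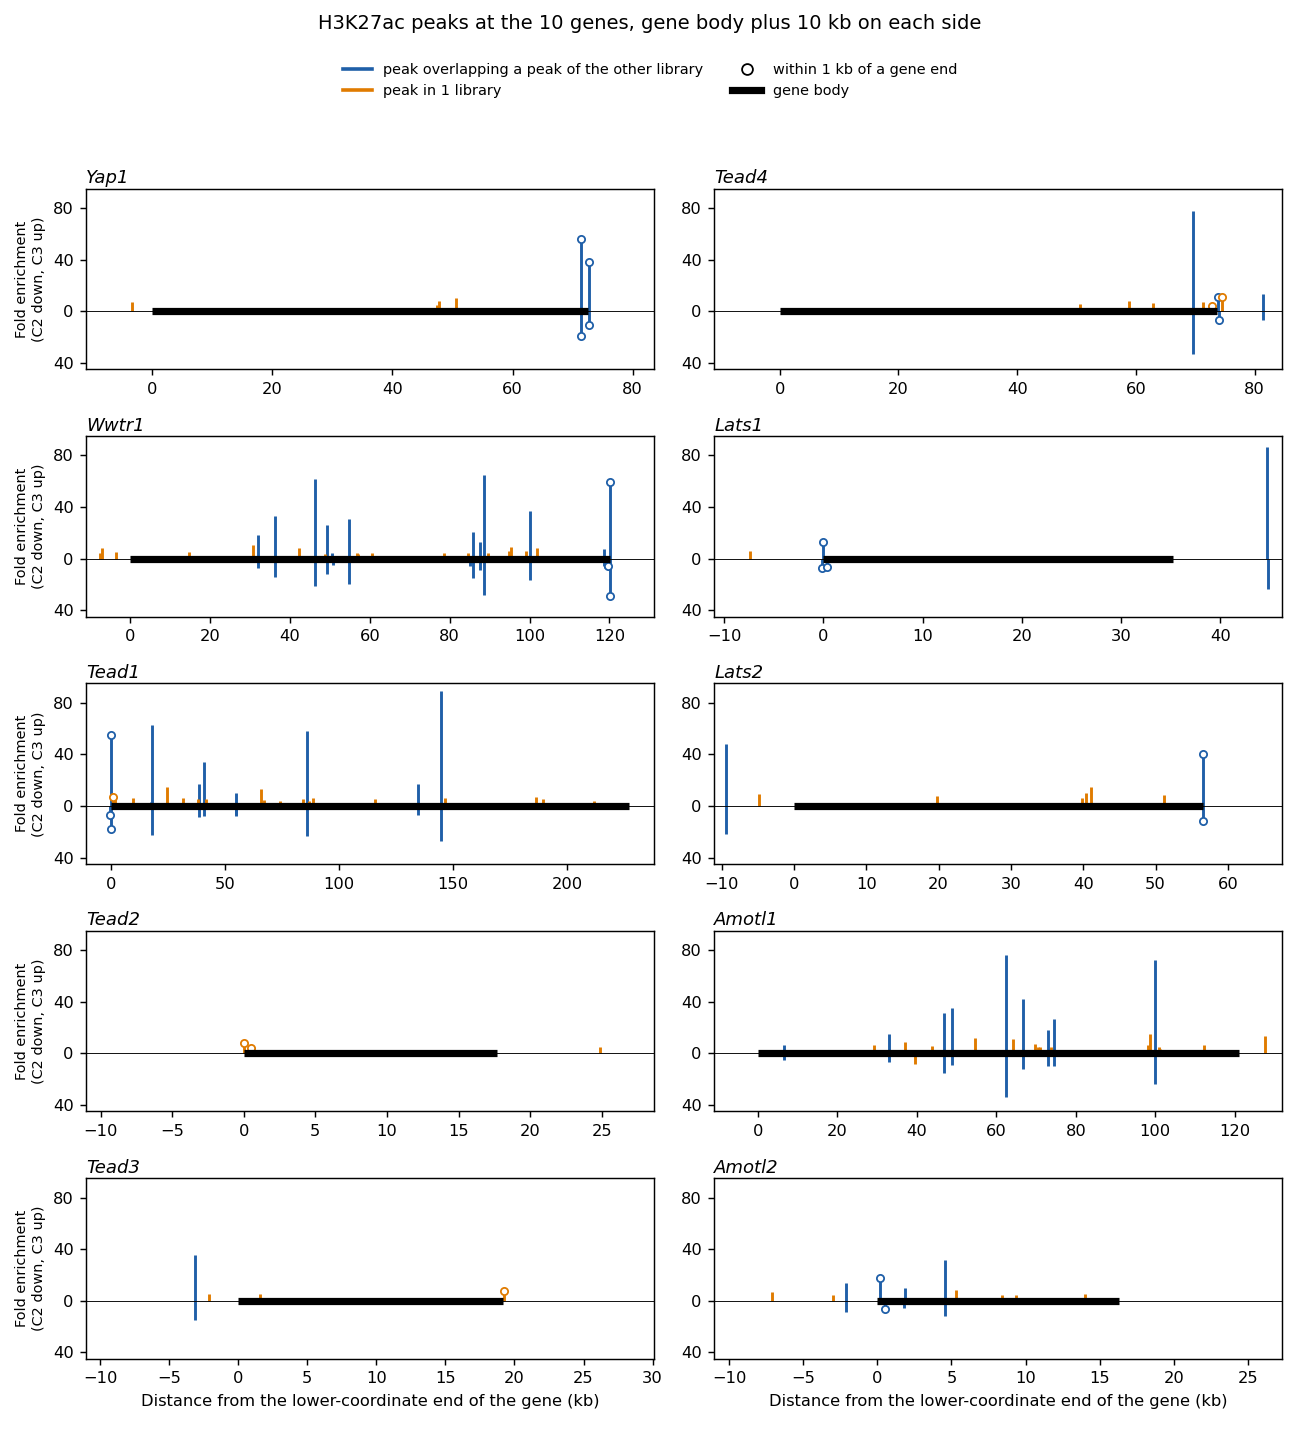
H3K27ac peaks at the 10 genes. The x axis gives the distance of each peak's summit from the lower-coordinate end of the gene in kb, and the y axis the fold enrichment over background, with C3 drawn upward and C2 downward. Blue lines are peaks that overlap a peak of the other library, orange lines are peaks in 1 library, open circles mark gene-end peaks, and black bars are gene bodies. *Wwtr1*, *Tead1*, and *Amotl1* carry blue lines along the gene body, whereas *Yap1* carries them only at 1 end.

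Gene-end peaks were present in both libraries at 7 of 10 genes, namely *Yap1*, *Wwtr1*, *Tead1*, *Tead4*, *Lats1*, *Lats2*, and *Amotl2*. Over all 21887 protein-coding genes the share was 43.4%. In C2 alone the count was also 7, against 43.4% of all genes. In C3 it was 9, with *Tead2* and *Tead3* added, against 53.9% of all genes. Of the 6 members of at least 50 kb, 5 had one in both libraries, against 47.6% of the 4945 genes of that length, and the same 5 had one in C2 and in C3, against 47.7% and 59.6%. *Amotl1* had none at the ends of its annotated body. When sharing required an overlap of 50% of each peak, the count in both libraries was 1, against 22.0% of all genes. The counts rest on genes chosen by name, with earlier results of these data known, and no test of the list was made.

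*Yap1* (gene body chr9:7931999-8004638, minus strand) had a pair of gene-end peaks in each library. The peak over its RefSeq start had a fold enrichment of 10.8 in C2 (chr9:8004387-8004875) and 38.1 in C3 (chr9:8004188-8004993). The second, inside the gene, was higher, at 19.0 in C2 (chr9:8003341-8003712) and 56.3 in C3 (chr9:8002821-8003872). *Wwtr1* (chr3:57455644-57575910, minus strand) had its strongest gene-end peak over its start, at 29.1 in C2 (chr3:57575674-57576214) and 59.4 in C3 (chr3:57574732-57576732). Both values were at the 93.9th percentile of their own list. At the starts, *Wwtr1* was thus higher than *Yap1* in each library.

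*Tead1* (chr7:112679356-112906784) had the highest gene-end value of the TEAD genes, 17.6 in C2 (chr7:112678977-112679450) and 55.0 in C3 (chr7:112678464-112679769). *Tead4* (chr6:128227143-128300813) had 6.78 in C2 (chr6:128300965-128301148) and at most 11.4 in C3, in a peak of C3 only (chr6:128301485-128301857). *Tead2* (chr7:45215792-45233468) had no peak in C2 and gene-end peaks of 7.81 and 4.44 in C3. *Tead3* (chr17:28331671-28350805) had 1 gene-end peak, of 7.20, in C3 only (chr17:28350795-28351026). An end of *Tulp1* lies within 1 kb of this peak. The order at gene ends was the same in both libraries for the TEAD genes with a value in each, *Tead1* above *Tead4*.

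Among C3 peaks as strong as the *Tead2* start peak, to within 10%, only 11.1% overlapped a C2 peak, and for *Tead3* this was 8.06%. At this strength C2 lacked most peaks of C3, and whether C2 cells lacked the mark at *Tead2* and *Tead3* cannot be read from its list.

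*Lats2* (chr14:57689662-57746212, minus strand) had a gene-end peak of 11.5 in C2 (chr14:57746040-57746445) and 40.4 in C3 (chr14:57745271-57746677). *Lats1* (chr10:7681200-7716461) had 7.46 in C2 (chr10:7680894-7681329) and 13.1 in C3 (chr10:7680610-7682076). The *Lats1* start lies within 1 kb of an end of *Pcmt1*, a protein repair methyltransferase gene, so these peaks cannot be assigned to *Lats1* alone. *Amotl2* (chr9:102717091-102733418) had 6.78 in C2 (chr9:102717485-102717744) and 17.9 in C3 (chr9:102717053-102718650). Between the kinases, the *Lats2* value was the higher in each library.

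The *Amotl1* body (chr9:14541966-14662974, minus strand) extends past the RefSeq start given in the promoter table, which lies at 14615000. That start was covered by a shared peak, of 9.76 in C2 (chr9:14614920-14615210) and 18.2 in C3 (chr9:14613746-14615257), which counts as distal by the rule used. When starts of the promoter table replaced gene ends, 6 of the 8 genes in that table had a shared peak within 1 kb of a start, against 45.6% of 17492 genes. *Tead1* and *Tead4* are not in it.

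The promoter windows of these genes were searched for short motifs, because TEAD factors bind the letters GGAATG. RefSeq promoter windows of GRCm38.p6 run from 250 bases before a start to 50 after. Of 8 genes with 12 windows, 5 held GGAATG or its reverse complement CATTCC, which were *Yap1*, *Wwtr1*, *Tead3*, *Lats2*, and *Amotl2*. By gene, the share over the 17492 genes with a window was 15.5%. By window, the letters were in 7 of the 12, against 13.6% of all windows, and both *Wwtr1* windows hold the same site. The AP-1 motif TGANTCA was in 0 of the 12 windows and the ETS motif CCGGAAGT in 0, against 6.99% and 5.15% of all windows and 8.12% and 5.69% of genes. Both strands were searched, and the ETS and TEAD letters share GGAA. A match is a description of the letters and not a binding site. Peaks of both libraries overlapped 7 of the 12 windows, against 40.7% of all windows, and C3 peaks overlapped 10, against 50.3%. Peaks of both libraries overlapped 30.8% of windows with the TEAD letters and 42.2% of those without.

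The stretches before the gene body are shown for *Wwtr1* (chr3:57575911-57576160, minus strand), *Yap1* (chr9:8004639-8004846, minus strand), and *Tead3* (chr17:28350806-28351055, minus strand), because each holds the motif and meets a peak. Capitals mark GGAATG.
Wwtr1: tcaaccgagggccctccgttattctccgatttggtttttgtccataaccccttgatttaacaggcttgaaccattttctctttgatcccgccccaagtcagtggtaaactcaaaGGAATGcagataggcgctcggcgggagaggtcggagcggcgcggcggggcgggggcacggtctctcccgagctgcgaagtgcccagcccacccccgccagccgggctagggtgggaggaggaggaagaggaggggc
Yap1: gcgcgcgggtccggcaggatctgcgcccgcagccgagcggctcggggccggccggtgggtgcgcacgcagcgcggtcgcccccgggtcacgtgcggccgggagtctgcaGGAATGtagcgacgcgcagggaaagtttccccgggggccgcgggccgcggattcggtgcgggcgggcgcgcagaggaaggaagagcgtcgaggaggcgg
Tead3: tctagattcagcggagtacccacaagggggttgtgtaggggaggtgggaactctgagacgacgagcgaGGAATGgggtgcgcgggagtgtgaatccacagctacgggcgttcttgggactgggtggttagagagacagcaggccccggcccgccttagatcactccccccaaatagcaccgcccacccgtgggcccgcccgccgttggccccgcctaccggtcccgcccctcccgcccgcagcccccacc
The *Wwtr1* and *Yap1* motifs lie in peaks of both libraries, and the *Tead3* motif shown lies in the C3 peak only. The displayed motifs of *Wwtr1*, *Yap1*, and *Tead3* begin 136, 141, and 182 bases before the RefSeq start, respectively. The other 3 matches in the *Tead3* windows lie in no peak.

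At *Lats2* and *Amotl2* the motif lies close to the start, and 30 bases around it are shown for *Lats2* (chr14:57746102-57746131, minus strand) and *Amotl2* (chr9:102717727-102717756, plus strand). Capitals mark GGAATG or CATTCC.
Lats2: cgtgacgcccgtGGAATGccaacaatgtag
Amotl2: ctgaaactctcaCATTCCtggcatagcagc
Both sites lie in peaks of C2 and of C3. *Lats2* and *Amotl2* are known targets of YAP and TEAD that feed back on the pathway. The windows of *Lats1*, *Tead2*, and *Amotl1* do not hold these letters.

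The coactivator genes differed in their distal peaks. *Wwtr1* had 13 distal peaks in C2, and all 13 overlapped a C3 peak. C3 had 28, of which 11 overlapped a C2 peak. *Yap1* had 0 in C2 and 4 in C3, none of them shared. The *Wwtr1* body is 120.3 kb long and that of *Yap1* 72.6 kb. Per 10 kb of body and flanks, C3 had 1.996 distal peaks at *Wwtr1* and 0.432 at *Yap1*.

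The strongest distal peak of *Wwtr1* had a fold enrichment of 28.1 in C2 (chr3:57543952-57545087) and 64.6 in C3 (chr3:57543487-57545189). Its shared distal peaks ranged from 5.24 to 28.1 in C2 and from 4.15 to 64.6 in C3. The 17 in C3 only ranged from 3.88 to 10.4. The 4 distal peaks of *Yap1* ranged from 4.88 to 10.0 in C3, and the strongest was at chr9:7982517-7982842. Every shared distal peak of *Wwtr1* but 2 exceeded, in C3, the highest distal value of *Yap1*. Of all C3 peaks within 10% of the strongest distal *Yap1* peak, 23.1% overlapped a C2 peak.

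**Figure D2:**
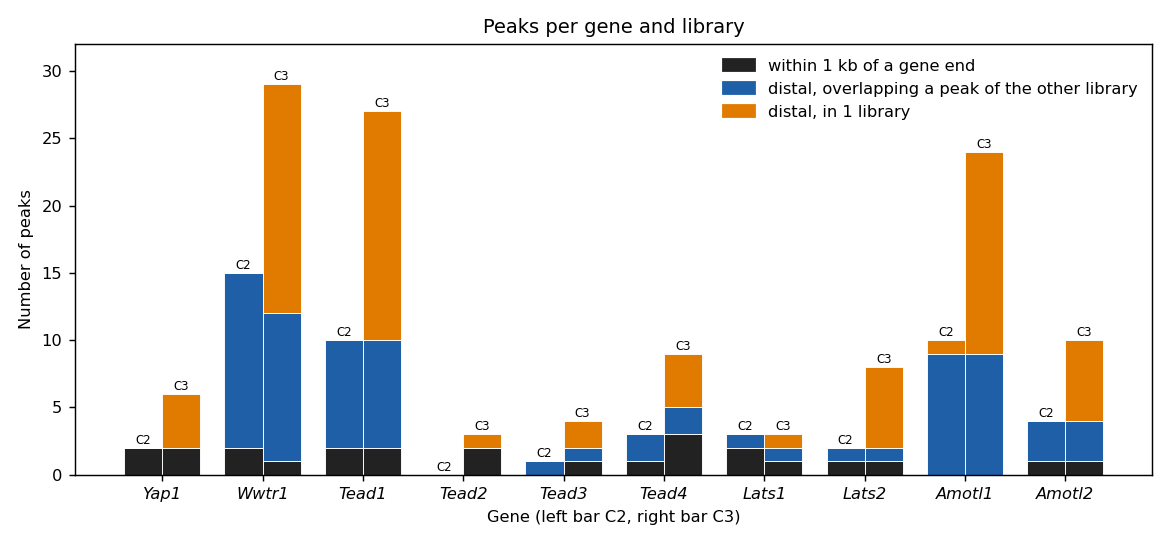
Number of H3K27ac peaks per gene (x axis) and library, with C2 as the left and C3 as the right bar of each pair. Black counts gene-end peaks, blue distal peaks that overlap a peak of the other library, and orange distal peaks in 1 library. *Wwtr1* has 15 peaks in C2 and 29 in C3, and *Tead2* has 0 and 3.

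Among the TEAD genes, *Tead1* had 8 distal peaks in C2, all shared, and 25 in C3, of which 8 were shared. *Tead4* had 2 in C2, both shared, and 6 in C3. *Tead3* had 1 in C2 and 3 in C3. *Tead2* had 0 in C2 and 1 in C3. The *Tead1* body is the longest of the 10 genes, at 227.4 kb, and C3 had 1.01 distal peaks per 10 kb there against 0.641 at *Tead4* and 0.767 at *Tead3*.

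The strongest peak of any of the 10 genes in C3 was distal in *Tead1*, at 89.2 (chr7:112823347-112824154), with 27.1 in C2 (chr7:112823592-112824152). It lies at the 98.0th percentile of the C3 list and the 92.4th of the C2 list. Shared distal peaks of *Tead1* ranged from 6.74 to 27.1 in C2 and from 3.01 to 89.2 in C3. At *Tead4*, the strongest peak lay 3.85 kb inside the higher-coordinate end, at 33.2 in C2 (chr6:128296435-128296962) and 77.5 in C3 (chr6:128296370-128297263). These exceeded its gene-end values in each library. The shared distal peak of *Tead3*, with 14.6 in C2 and 35.6 in C3, lies at an end of *Rpl10a*, a ribosomal protein gene. The distal peak of *Tead2* in C3, with 5.26, was not shared and lies at an end of *Slc6a16*. Without them *Tead2* had no distal peak, and *Tead3* had 2 in C3 only.

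The kinase genes had 1 shared distal peak each. The median was 0 over all protein-coding genes and 1 over those of at least 50 kb. That of *Lats1*, with 23.7 in C2 (chr10:7725755-7726226) and 86.3 in C3 (chr10:7725616-7726430), lies 9.29 kb beyond its end and meets an end of *Katna1*, which encodes a microtubule-severing protein. No other distal peak of *Lats1* was shared. That of *Lats2* lies 9.27 kb beyond the 3′ end, with 22.0 in C2 (chr14:57680004-57680393) and 48.1 in C3 (chr14:57679925-57680543), and no other gene end lies within 1 kb. Both rest on the 10 kb flank. Inside its body, *Lats2* had distal peaks in C3 only, the strongest at 15.0 (chr14:57730638-57731003). Of all C3 peaks within 10% of it, 54.6% overlapped a C2 peak.

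The angiomotin genes both had shared distal peaks. *Amotl1* had 10 in C2, of which 9 were shared, and 24 in C3, of which 9 were shared. The unshared C2 peak, of 8.13 (chr9:14581242-14581420), was the only C2 peak of the 10 genes without a C3 peak. The strongest had 33.9 in C2 (chr9:14604347-14604805) and 76.5 in C3 (chr9:14604199-14604936), the highest C2 value at any of the 10 genes. Another, of 23.8 in C2 and 72.5 in C3, lies within 1 kb of an end of the noncoding gene *Gm34263*. *Amotl2*, with a body of 16.3 kb, had 3 in C2, all shared, and 9 in C3. They had 8.79, 5.42, and 12.2 in C2 and 14.0, 10.0, and 31.3 in C3. The strongest lies inside the gene at chr9:102721462-102721851 in C2 and chr9:102721279-102722033 in C3. The peak of 5.42 in C2 and 10.0 in C3 lies within 1 kb of the RefSeq start of *Amotl2*. It counts as distal only because distance was taken from the ends of the gene body. Per 10 kb, *Amotl2* had the highest C3 density of the 10 genes, at 2.48 distal peaks, against 1.70 at *Amotl1*.

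A shared distal peak was present at 8 of 10 genes, against 40.0% of all protein-coding genes. Without peaks at an end of another protein-coding gene, a setting chosen after the data were seen, 6 of 10 remained, against 30.0%. *Lats1* and *Tead3* were the genes lost. Without the 10 kb flanks it was 5 of 10, with *Lats2* lost too, against 20.4% of all genes. In C3 all 10 genes had a distal peak, against 60.6%, and in C2 8 had one, against 40.1%. Long genes hold more peaks. Among the 4945 genes of at least 50 kb, 53.5% had a shared distal peak, and of the 6 members of that length 5 had one, all but *Yap1*. In C3 all 6 had a distal peak, against 75.6%. By number of shared distal peaks, *Wwtr1* was at the 98.9th percentile of these genes, *Amotl1* at the 96.8th, *Tead1* at the 95.7th, *Tead4* at the 70.75th, *Lats2* at the 55.8th, and *Yap1* at the 23.2nd. A percentile is the share of genes with a lower value plus a share of 50% of those tied.

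The strongest peak of a gene was distal at 8 of 10 genes in C3 and at 7 of the 9 genes with a peak in C2. Over all protein-coding genes with a peak the shares were 46.2% in C3 and 43.4% in C2. Of the 6 members of at least 50 kb it was distal at 5 in C3 and 4 in C2, against 52.8% and 51.2% of genes of that length with a peak. The gene-end peak was the stronger in C3 at *Yap1* and *Tead2*, and in C2 at *Yap1* and *Wwtr1*. At *Wwtr1* the values were close in each library, 29.1 at the gene end and 28.1 distal in C2, and 59.4 and 64.6 in C3. Without distal peaks at an end of another protein-coding gene, the counts were 6 of 10 in C3 and 5 of 8 in C2. Over all genes with a peak left the shares were 36.9% and 32.2%. Gene-end peaks near another gene, as at *Lats1* and *Tead3*, were kept. The wide gap at *Lats1* rests on the peak at *Katna1*.

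**Figure D3:**
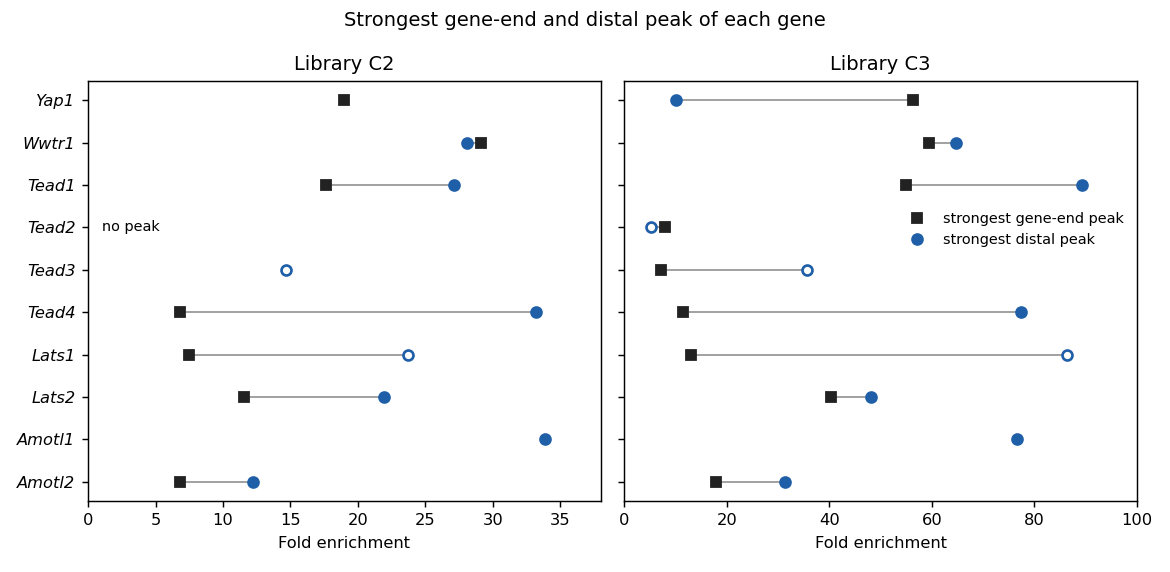
Fold enrichment (x axis, linear, with a different range for each library) of the strongest gene-end peak (black squares) and the strongest distal peak (blue circles) of each gene. Open circles are distal peaks at an end of another protein-coding gene, and grey lines join the values of 1 gene. At *Tead4* the distal peak reaches 33.2 in C2 and 77.5 in C3 against gene-end values of 6.78 and 11.4.

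Peaks of both libraries covered 4.37% of the *Wwtr1* body, 2.87% of *Amotl1*, 1.36% of *Tead1*, 0.859% of *Yap1*, 0.717% of *Tead4*, and 0.306% of *Lats2*. The median over the genes of at least 50 kb was 0.272%. *Wwtr1* was at the 99.2nd percentile of these genes, *Amotl1* at the 97.3rd, and *Tead1* at the 86.95th. *Yap1* was at the 76.6th, *Tead4* at the 72.2nd, and *Lats2* at the 52.3rd. Of the shorter genes, *Amotl2* was covered to 5.73% and *Lats1* to 0.925%, and *Tead2* and *Tead3* were covered to 0%. The median over all protein-coding genes was also 0. In C3 alone, 23.5% of the *Amotl2* body was covered, 11.1% of *Wwtr1*, and 10.1% of *Amotl1*, against 1.32% for the median of all genes.

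The libraries differed in strength more than in which strong regions they held. A C2 peak that met several C3 peaks was set against the strongest of them, which favours C3. Of the 49 shared C2 peaks of the 10 genes, 48 had a lower fold enrichment than that C3 peak. The median ratio of C3 to C2 was 2.33. The exception was a weak distal peak of *Wwtr1*, with 5.24 in C2 and 4.15 in C3. A *Wwtr1* peak of 7.46 in C2 also met a weaker C3 peak of 7.23, and a *Tead1* peak of 22.6 met one of 3.01. Neither the count of 48 nor the ratio was taken over the whole list, so they cannot be read as particular to the 10 genes. Shared C2 peaks had a median fold enrichment of 9.98 over the whole list and 9.76 at the 10 genes. Of the 123 C3 peaks, 44 were shared, with a median fold enrichment of 31.3, and 79 were not, with a median of 6.03 and a maximum of 15.0. Over the whole list these medians were 27.03 and 6.20. At a C3 fold enrichment under 10, 4 of 73 peaks of the 10 genes were shared, against 6.66% of all such peaks. From 10 to 20 it was 13 of 23, against 47.6%. From 20 to 40 it was 12 of 12, against 93.7%, and above 40 it was 15 of 15, against 99.9%. The shares at the 10 genes were thus near those of the list at each strength.

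**Figure D4:**
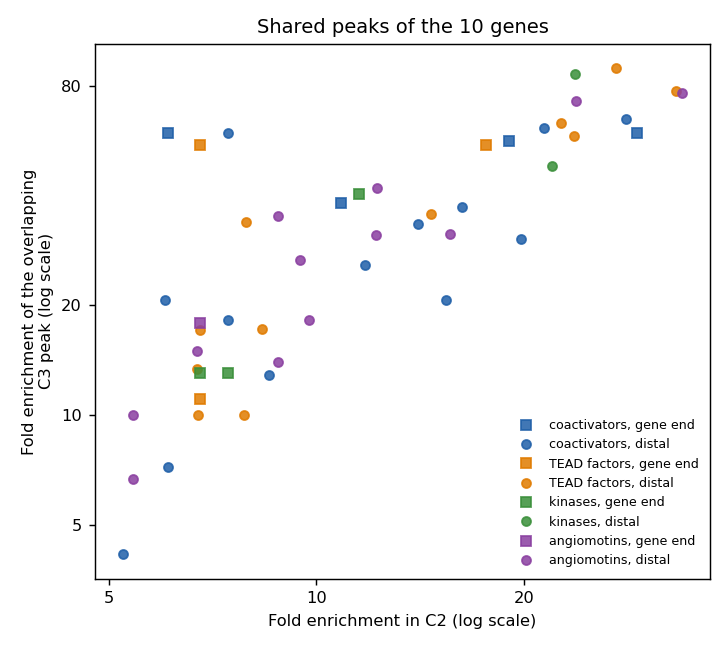
Fold enrichment of the 49 shared C2 peaks of the 10 genes (x axis, log scale) against that of the strongest C3 peak each overlaps (y axis, log scale). Squares are gene-end and circles distal peaks, colours give the role of the gene, and C2 peaks under 1 wide C3 peak share a y value. Of the 49, 48 are higher in C3, a count that was not made over the whole list.

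The limits of 1 kb and 10 kb decide how some peaks are counted. Just inside 1 kb was the inner gene-end peak of *Yap1*, with a gap of 0.93 kb and a fold enrichment of 19.0 in C2, and just outside was a *Wwtr1* peak with a gap of 1.13 kb and a fold enrichment of 7.46 in C2. Just inside 10 kb were the flank peaks of *Lats2* and *Lats1* described above, and just outside was a C3 peak of 29.96 at 10.89 kb from *Tead2*.

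Other genes of the pathway were taken from a list called upstream and a list of YAP/TAZ targets. The upstream list also held the TEAD cofactor genes *Vgll1*, *Vgll2*, *Vgll3*, and *Vgll4*, which are not upstream regulators. Of 27 upstream genes, 20 (74.1%) had a gene-end peak in both libraries, 3 in C3 only, and 4 in neither. Over all genes the share in both was 43.4%. When sharing required an overlap of 50% of each peak, the upstream count was 6 of 27, against 22.0% of all genes. *Stk3*, which encodes a kinase that activates the LATS kinases, had 35.9 in C2 and 131 in C3. *Nf2*, which encodes the scaffold merlin, had 33.0 and 119.5, and *Taok3*, a kinase gene upstream of *Stk3*, had 42.6 and 120.2. *Sav1*, *Mob1a*, and *Mob1b*, which encode adaptors of the kinases, had 15.9, 22.4, and 32.1 in C2 and 68.4, 53.4, and 95.1 in C3. The genes without a gene-end peak in either library were *Fat1* and the TEAD cofactor genes *Vgll1*, *Vgll2*, and *Vgll3*. *Vgll4*, a repressor of YAP and TEAD, had a gene-end peak of 26.4 in C3 only. *Taok1* and *Taok2* also had one in C3 only.

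Of 20 YAP/TAZ target genes, 9 (45.0%) had a gene-end peak in both libraries, 5 in C3 only, and 6 in neither. This share was near the 43.4% of all genes. When sharing required an overlap of 50% of each peak, it was 4 of 20, against 22.0% of all genes. In C3 the share was 14 of 20 (70.0%), against 53.9% of all genes. The 9 were *Ccn1*, *Asap1*, *Axl*, *F3*, *Crim1*, *Fjx1*, *Gadd45a*, *Nuak2*, and *Birc5*. *Axl*, a receptor kinase gene, had 27.1 in C2 and 80.4 in C3, and *Gadd45a*, a stress response gene, had 26.4 and 71.1. The matricellular gene *Ccn1* had 11.6 in C2 and 30.9 in C3. *Ccn2*, the other matricellular target, had 7.49 in C3 only, and *Ankrd1* had no peak in either library. *Asap1* had 12 shared distal C2 peaks over a body of 296.1 kb, and *Crim1* had 8 over 176.4 kb. The lists came from textbook roles but were chosen with earlier results of these data known. Differences between them were not tested.

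**Figure D5:**
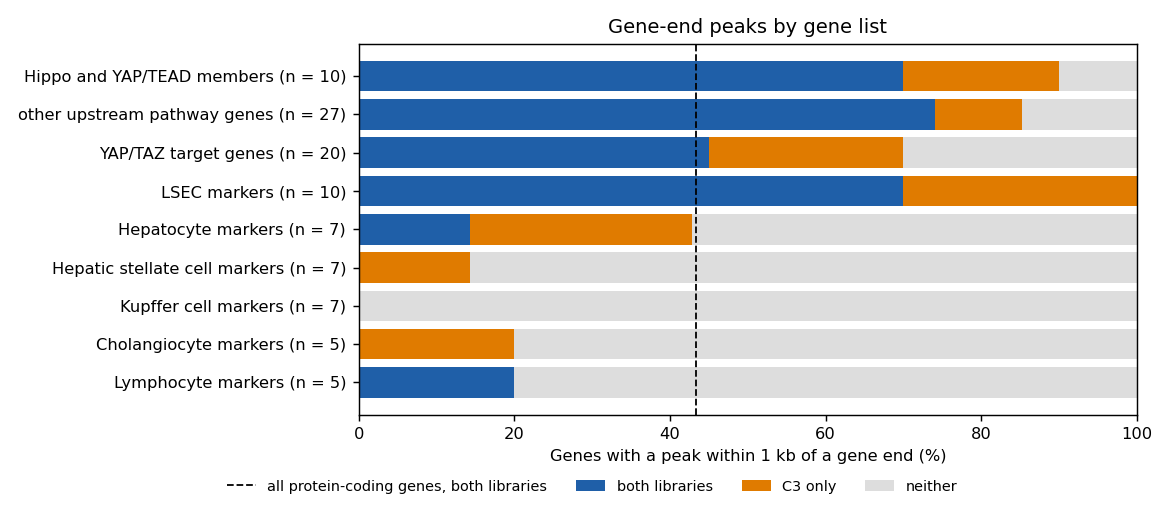
Share of genes (x axis, %) with an H3K27ac peak within 1 kb of a gene end in both libraries (blue), in C3 only (orange), or in neither (grey), for the pathway lists and the cell type marker lists. The dashed line is the share in both libraries over all protein-coding genes, 43.4%. The 10 pathway genes stand at 70.0%, the upstream genes at 74.1%, and the target genes at 45.0%.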

How the data were processed

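Peak lists of H3K27ac ChIP-Seq came from the mouse LSEC libraries C2 and C3, which were taken as 1 condition. Per the labels, the submitters' processing notes name cutadapt 0.4.4, BWA 0.7.17, Picard 1.67, MACS2 2.0.10, bedtools 2.27.1, and the build mm10. The authors deposited 1 peak list per library, not pooled, and use of the inputs was not given in the sources used here. The deposited fold enrichment is a ratio of signal to background, and other columns hold the −log10 of the p-value and the q-value. The deposited score is a rescaled −log10 q and was not used. The largest q-value was 0.00907 in C2 and 0.00981 in C3. Fold enrichments were compared by value within a library and side by side between libraries, without scaling. The lists hold no read counts, so depth and the intervals that need it are unknown.

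Gene bodies came from the RefSeq table of GRCm38.p6, the assembly also known as mm10, and starts and promoter sequences from RefSeq. The table gives gene bodies only, so exons, introns, and UTRs were not told apart. Of the 10 genes, 8 were in the promoter table. All positions count from 1. Peaks within 1 kb of an end of another protein-coding gene were marked. The overlap counts were checked on simulated peaks. The genes named were the 10 genes, the pathway and marker lists, and genes with an end within 1 kb of a counted peak. Members and lists were chosen with earlier results of these data known. The alternatives tried were a limit on the q-value of 1e-05, equal numbers of strongest peaks, a reciprocal overlap of 50%, 5 kb from a gene end, no flank or 50 kb, joined peaks, RefSeq starts, ranking by p, and each library alone. Python 3.11.15 was used with matplotlib 3.10.9, pandas 2.3.3, and numpy 2.4.6.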

Additional observations from a re-analysis of the deposited data

How the results depend on the processing

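No paired analysis was possible because the 2 input libraries that share numbers with C2 and C3 were not analysed here and C2 and C3 form 1 condition. Over 8 results and 53 alternatives, 44 stayed within 1.5 times a count or within the difference between the libraries for a percentile, and 9 did not. With a reciprocal overlap of at least 50%, genes with a shared gene-end peak went from 7 to 1 and shared distal peaks from 38 to 23. Upstream genes with a shared gene-end peak went from 20 to 6 of 27, and target genes from 9 to 4 of 20. Of all genes, 22.0% had a shared gene-end peak at this setting. The cause of these changes was not tested. With no flank, genes with a shared distal peak went from 8 to 5, against 20.4% of all genes. With the same number of strongest peaks, C3 peaks of the 10 genes went from 123 to 46. When only 1 library was used, genes with a gene-end peak ranged from 7 (without C3) to 9 (without C2), genes with a distal peak from 8 to 10, peaks from 50 to 123, distal peaks from 39 to 109, and target genes with a gene-end peak from 9 to 14. For upstream genes this range was 20 to 23. The median percentile of covered body ranged from 66.91 to 71.05. The unknown depth limits what the absence of a C2 peak can show.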
